A study of Mus musculus with 12 samples.

Results

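The complement and coagulation factors are blood proteins that hepatocytes make and secrete, and 37 of their genes were followed here through a mouse model of liver cancer. The genes were taken from a list of complement components, clotting factors and their inhibitors, in which Hc is the gene of complement component C5. Of the 37 genes, 36 had a named probe and entered the 10641 genes tested, and these 36 were detected on all 12 arrays. C3, the gene of the central complement component, was not analysed here because no probe carried its name. Where a gene had several probes, the one with the highest mean signal stands for it.

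Complement is a cascade of plasma proteases that starts from antibodies or from lectins that bind sugars on microbes, amplifies itself through the alternative pathway and ends in a pore, the membrane attack complex, built from the terminal components. Coagulation runs from the contact factors or from tissue factor to thrombin, which turns fibrinogen into fibrin, and plasmin later dissolves the clot. The liver is the main source of most of these proteins, vitamin K is needed to finish several of the clotting factors, and inhibitors of the serpin family hold the proteases in check.

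RNA came from liver cells of male, age-matched mice of the B6 strain, in 4 groups of 3 arrays each. The groups were hepatocellular carcinoma (HCC), fully malignant per the labels, normal hepatocytes, and 2 groups of premalignant hepatocytes called non-aggregate and aggregate. Tumours had been induced by injection of diethylnitrosamine (DEN), a carcinogen that hepatocytes activate. Normal hepatocytes and HCC shared 1 chip and both premalignant groups shared the other. The labels do not say how the aggregates were separated, nor whether replicates came from separate animals. The p-values therefore cover no more than the spread among the arrays of a group.

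Between 15354 and 19482 of the 45281 probes were detected per array, with more on each HCC array than on any other, and precision is limited by having 3 arrays per group. The 8 measured hepatocyte marker genes were detected in every group. Alb, the albumin gene, rose by 1.69 in HCC (SE 0.19, adjusted p = 2.44e-05) and the other 7 were not called. The Alb probe had a mean log2 level of 8.83 in normal hepatocytes, where the other 7 markers ran from 13.08 to 15.29. Its rise may therefore not stand for Alb RNA as a whole. RNA of other liver cells was higher in HCC. Of 13 endothelial markers 12 rose, and their summed level, in normalised intensity units, was 1522 to 4268 on normal arrays and 8260 to 12268 on HCC arrays. Of 9 macrophage markers 6 rose, with sums of 998 to 1095 and 8061 to 10469, and of 11 stellate cell markers 9 rose, with sums of 677 to 1316 and 8012 to 17297. Acta2 and Col1a1, a myofibroblast and a collagen gene, were among the 11; Col1a1 was not detected on any normal array and Acta2 was. The part of these cells in the changes described here was not tested, and in such bulk RNA fewer cells of a type and less RNA per cell cannot be told apart.

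Promoter sequences are shown for 3 pairs of neighbouring members whose behaviour the results turn on. F11 and Klkb1 lie 4632 bases apart on chromosome 8 and moved in opposite directions in HCC. C8b and C8a are neighbouring subunit genes of which the first fell. Fga and Fgb are neighbouring fibrinogen genes that were not called, Fgb on a dim probe. The sequences are those before the transcript start in RefSeq, build GRCm38.p6, on the coding strand, 250 bases each except C8a. For C8a the 161 bases before the outer end of the gene are given, because the other 89 lie within it, and the last 24 bases of the F11 window also lie within that gene's span. Capitals mark matches, on either strand, to GTTAAT (a half-site of HNF1, a hepatocyte transcription factor), TTGCNNAA (C/EBP, a family of liver and acute phase factors) and TTCNNNGAA (STAT factors, which act downstream of interleukin 6). The matches do not overlap each other.
F11, chr8:45262032-45262281, minus strand: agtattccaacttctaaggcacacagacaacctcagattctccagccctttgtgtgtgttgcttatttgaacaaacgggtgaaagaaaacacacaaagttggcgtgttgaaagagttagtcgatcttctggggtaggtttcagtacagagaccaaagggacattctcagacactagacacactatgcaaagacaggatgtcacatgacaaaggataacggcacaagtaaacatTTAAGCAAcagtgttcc
Klkb1, chr8:45294836-45295085, minus strand: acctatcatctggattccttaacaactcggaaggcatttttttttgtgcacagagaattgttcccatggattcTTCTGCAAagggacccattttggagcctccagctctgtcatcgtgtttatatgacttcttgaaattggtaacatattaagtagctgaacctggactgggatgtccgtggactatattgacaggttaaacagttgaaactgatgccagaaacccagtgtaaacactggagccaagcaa
C8b, chr4:104766067-104766316, plus strand: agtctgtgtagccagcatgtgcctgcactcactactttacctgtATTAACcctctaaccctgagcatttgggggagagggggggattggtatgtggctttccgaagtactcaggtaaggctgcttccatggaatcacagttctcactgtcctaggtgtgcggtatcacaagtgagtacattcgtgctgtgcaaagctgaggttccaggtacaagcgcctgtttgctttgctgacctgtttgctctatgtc
C8a, chr4:104876488-104876648, minus strand: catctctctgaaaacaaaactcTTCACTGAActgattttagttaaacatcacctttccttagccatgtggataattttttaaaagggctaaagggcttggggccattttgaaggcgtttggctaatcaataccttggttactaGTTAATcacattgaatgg
Fga, chr3:83025903-83026152, plus strand: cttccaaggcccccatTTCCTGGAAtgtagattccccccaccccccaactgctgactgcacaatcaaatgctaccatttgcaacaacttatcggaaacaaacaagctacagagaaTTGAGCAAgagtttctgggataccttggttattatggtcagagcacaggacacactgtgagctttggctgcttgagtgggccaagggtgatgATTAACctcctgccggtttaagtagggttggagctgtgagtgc
Fgb, chr3:83049864-83050113, minus strand: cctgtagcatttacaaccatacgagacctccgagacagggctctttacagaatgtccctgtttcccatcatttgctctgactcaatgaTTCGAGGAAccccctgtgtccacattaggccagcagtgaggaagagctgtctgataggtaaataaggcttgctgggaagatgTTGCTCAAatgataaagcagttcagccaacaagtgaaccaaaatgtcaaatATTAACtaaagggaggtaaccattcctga

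The F11 and Klkb1 windows each held a C/EBP match, 17 and 177 bases before the start, and no other match. The F11 match lies in the last 24 bases, within that gene's span. The C8b and C8a windows each held an HNF1 half-site, at 206 and 107 bases, and C8a also held a STAT match at 228 bases. The C8a positions count from a start 89 bases within the gene, so the printed C8a sequence ends 89 bases before that start. The Fga window held all of these motifs, with the HNF1 half-site at 43 bases, C/EBP at 135 and STAT at 234. In Fgb they stood at 29, 80 and 162 bases. Of the 37 members 28 had a promoter in the table, and 8 of the 28 (28.6%) held the HNF1 half-site, against 6.43% of all 32851 promoters of that length. The C/EBP motif was in 7 of 28 (25%), against 9.56%, and the STAT motif in 6 of 28 (21.4%), against 7.02%. CAAAGTNCA, the motif of the hepatocyte factor HNF4, was in F9 alone, against 1.19% of all promoters. Among the members that rose in HCC and had a promoter, 2 of 8 held the HNF1 half-site, 1 of 8 the C/EBP motif and 0 of 8 the STAT motif. Among those that fell the counts were 1, 2 and 1 of 6, and among those not called 5, 3 and 5 of 13. The HNF1 matches among those that rose were in C4bp and in Proz, which had probes of both signs. The STAT match among those that fell was in Masp2, a gene whose probes disagreed in direction. A match describes the letters and is not evidence of binding.

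HCC was compared with normal hepatocytes to see how these plasma protein genes differ in the tumour. The membrane attack genes C6, C8b and C9 and the lectin gene Mbl1 were the most strongly lowered members, falling between 2.78-fold and 4.17-fold. The antiplasmin gene Serpinf2, the heparin cofactor gene Serpind1 and the clotting factor gene F11 rose most, by 3.10-fold, 2.70-fold and 2.28-fold. In all, 14 of 36 members rose and 6 fell, at a limma p-value adjusted by Benjamini-Hochberg over all genes below 0.05. Masp2 is counted among the 6 by its chosen probe, although its probes disagreed. These are 38.9% and 16.7% of the members, where 23.2% of all genes tested were called higher and 25.9% lower. The counts by role given below rest on the chosen probes and stand against the same shares. The median log2 change was 0.17 over the members and -0.08 over all genes. The arrays of HCC and normal hepatocytes did not overlap in 14 members that were higher in HCC and 6 that were lower, against 24.3% and 28.5% of all genes.

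The split of calls moved with the scaling of the arrays. By quantile normalisation 47.2% of all calls were upward, by median scaling 70.8%, by cyclic loess 56.8% and with the deposited normalised values 58.9%. Median scaling shifted the median of all genes from -0.08 to 0.18. The members gave 9 higher and 6 lower by median scaling, 17 and 4 by cyclic loess, and 15 and 7 with the deposited values. Of all 10641 genes, 3320 were higher and 1370 lower by median scaling. These counts were 2848 and 2170 by cyclic loess, and 2854 and 1993 with the deposited values. By median scaling the share called higher was thus smaller among the members than among all genes, and the share called lower was larger. By cyclic loess and with the deposited values the share called higher was larger among the members. No called member changed its direction under any of these scalings. Of the 20 called members 11 were also called when any 1 of the 12 arrays was left out: Serpinf2, Serpind1, F11, Cfi, F5, F12, C4bp, C6, C8b, C9 and Mbl1. The other 9 were nearer to the threshold. C2, Cfb, Serpinc1 and Klkb1 each lost the call without any of 4 arrays, Masp2 without any of 3 and C4b without either of 2, all of them normal or HCC arrays. Proz, Proc and Plg lost it in 9, 10 and 11 of the 12 cases, premalignant arrays included, since all groups share the estimate of the spread.

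**Figure D1:**
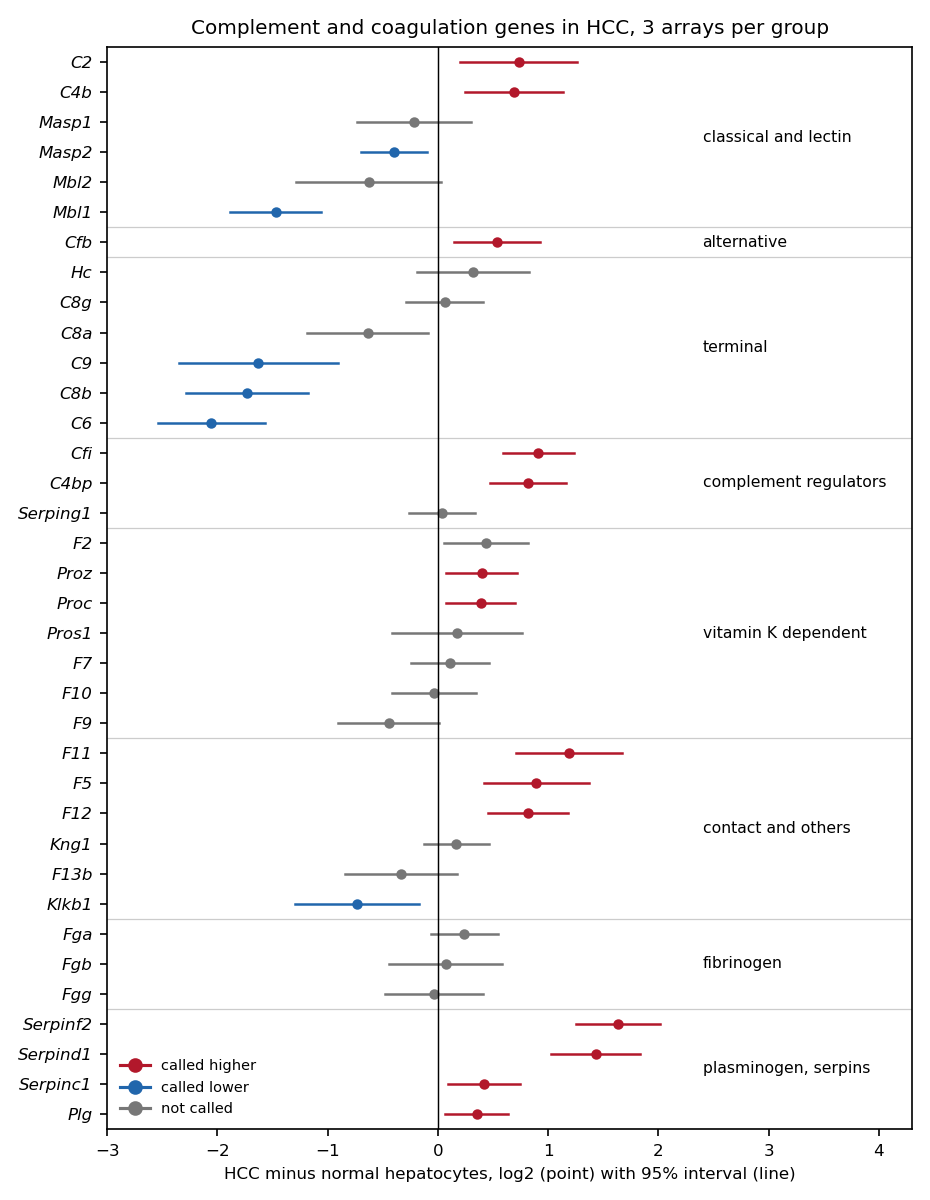
Log2 difference between HCC and normal hepatocytes (horizontal axis) for the 36 measured members, grouped by role, with points for the estimate, lines for its 95% interval and colours for the call, with 3 arrays per group. Terminal complement genes hold the lowest values, down to -2.06 for C6, and the plasminogen and serpin group holds the highest, up to 1.63 for Serpinf2.

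Of the 6 measured terminal complement genes, 3 fell and 0 rose, with a median log2 change of -1.13. C6, whose protein is the first to join C5b in the pore, had log2 levels of 11.13, 11.60 and 11.49 on the normal arrays and 9.61, 9.26 and 9.17 on the HCC arrays. Every HCC array lay below every normal array, and C6 changed by -2.06 (SE 0.22, n = 3 per group, adjusted p = 2.07e-05). A second C6 probe fell by 2.22. C8b, the beta subunit of C8, stood at 11.99, 12.33 and 12.13 in normal hepatocytes and at 10.09, 10.71 and 10.44 in HCC. Again the groups did not overlap, and the change was -1.73 (SE 0.26, adjusted p = 0.000185).

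C9, the subunit that polymerises into the ring of the pore, had log2 levels of 12.98, 13.16 and 13.82 in normal hepatocytes and 11.25, 11.26 and 12.57 in HCC. Its change was -1.63 (SE 0.33, adjusted p = 0.00165), with 1 HCC array nearer to the normal arrays than to the other HCC arrays, and both other C9 probes fell too, by 1.48 and 1.82. C8a, the alpha subunit of C8 and the neighbour of C8b, ran from 10.87 to 11.34 in normal hepatocytes and from 9.94 to 10.83 in HCC. These groups did not overlap either, but the change of -0.64 (SE 0.25) missed the threshold, at an adjusted p of 0.0542. C8g, the small lipocalin-like subunit, changed by 0.06 (SE 0.16, adjusted p = 0.778), and Hc, the gene of C5, by 0.32 (SE 0.23, adjusted p = 0.281). The values of the C8 subunits therefore ran from -1.73 to 0.06, and their differences from each other were not tested.

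Of the 6 genes of the classical and lectin pathways, 2 were called higher and 2 lower on their chosen probes. Over all genes the shares were 23.2% and 25.9%. Masp2, whose probes disagreed, is counted here among the lower ones. Mbl1, one of the mannose-binding lectins of the mouse, had log2 levels of 11.51, 11.49 and 11.18 in normal hepatocytes and 10.07, 10.08 and 9.61 in HCC. The groups were more than 1 log2 unit apart, and the change was -1.47 (SE 0.19, adjusted p = 7.32e-05). Mbl2, its close relative, stood at 11.62, 11.71 and 11.45 against 11.18, 11.58 and 10.14, and its change of -0.63 (SE 0.30, adjusted p = 0.103) rested on HCC replicate 3, without which it was -0.22. C2, the protease of the classical and lectin C3 convertase, rose by 0.73 (SE 0.25, adjusted p = 0.0266) and C4b, which gives the other part of that enzyme, by 0.69 (SE 0.20, adjusted p = 0.0144). A dimmer C4b probe rose by 0.75 (adjusted p = 0.0401), and the dimmest changed by 0.42 and was not called (adjusted p = 0.237). C4b has a near-identical copy, C4a, that its probes may also read.

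Masp1 and Masp2 encode the proteases that ride on the mannose-binding lectins, and their probes disagreed. The chosen Masp1 probe changed by -0.22 (SE 0.24, adjusted p = 0.469). Another Masp1 probe, designed on a cDNA clone, rose by 1.68 (SE 0.23, adjusted p = 0.000126), and the dimmest one fell by 0.46 (adjusted p = 0.0493). The chosen Masp2 probe fell by 0.40 (SE 0.14, adjusted p = 0.0308), a second fell by 0.53 and another rose by 0.42 (adjusted p = 0.0307). These genes give several transcripts, so no direction is given here for either gene as a whole.

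Cfb, the protease of the alternative pathway, rose by 0.54 (SE 0.18, adjusted p = 0.0271), from 11.94 to 12.04 on the normal arrays to 12.28 to 12.89 on the HCC arrays, and without HCC replicate 3 its change was 0.35. Cfb, C2 and C4b lie together on chromosome 17, with 87 bases between Cfb and C2, and all 3 rose. Of the 3 complement regulators, 2 rose. Cfi, the protease that cleaves C3b and C4b, had log2 levels of 13.19, 13.22 and 13.46 in normal hepatocytes and 14.01, 14.12 and 14.48 in HCC, and rose by 0.91 (SE 0.15, adjusted p = 0.000372). C4bp, the cofactor of Cfi for C4b, rose by 0.82 (SE 0.16, adjusted p = 0.00116), although a second and dimmer C4bp probe changed by 0.26 (adjusted p = 0.364). Serping1, the C1 inhibitor, changed by 0.04 (SE 0.14, adjusted p = 0.827).

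**Figure D2:**
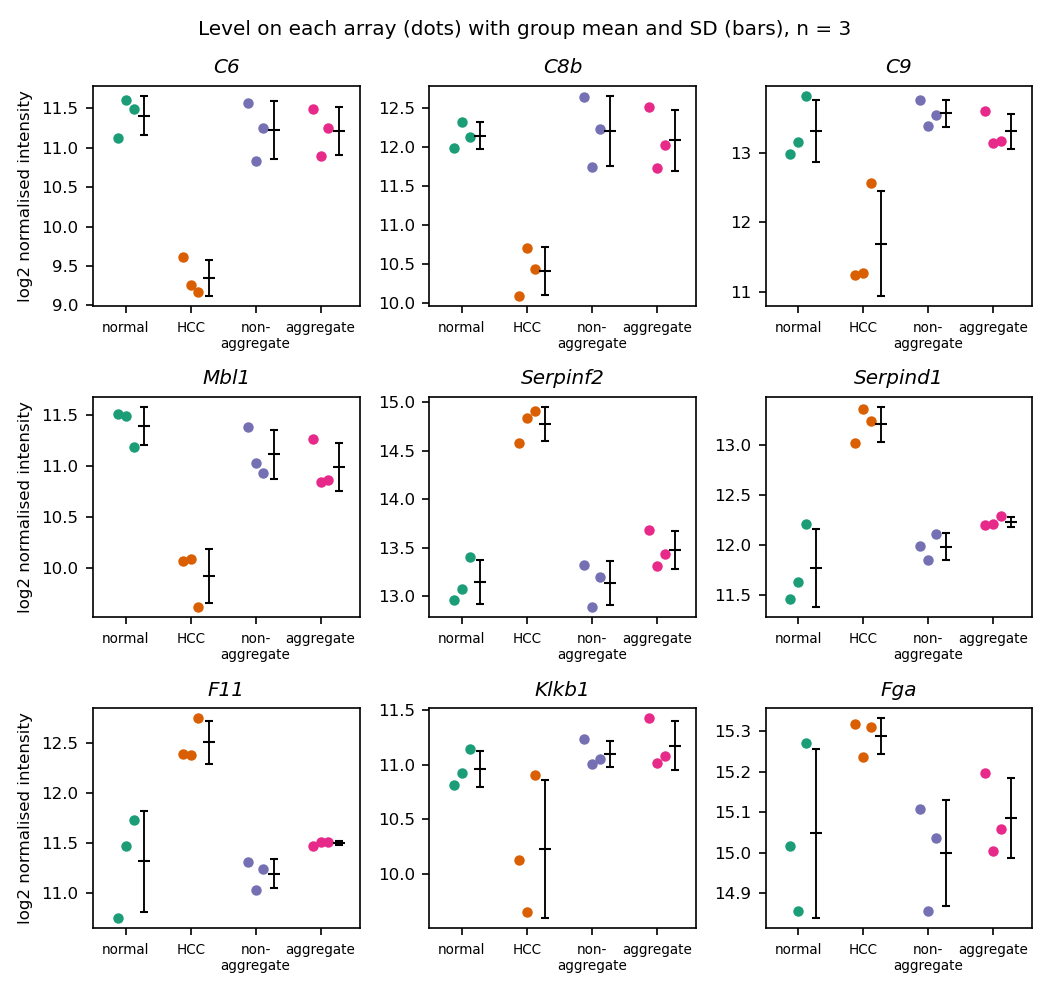
Normalised log2 intensity (vertical axes, each with its own range) of 9 members on each of the 12 arrays, by group, with group means and SD as bars (n = 3). C6, C8b, C9 and Mbl1 are low on the 3 HCC arrays only, Serpinf2, Serpind1 and F11 are high on them, and Klkb1 has 1 HCC array, at 10.90, among the normal ones.

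Of the 4 genes of plasminogen and the serpins, 4 were called higher on their chosen probes, where 23.2% of all genes were. The median log2 change was 0.93. Plg lost its call in 11 of the 12 fits that left out 1 array, and the Serpinc1 probes disagreed in sign. Serpinf2, the main inhibitor of plasmin, had log2 levels of 12.96, 13.07 and 13.40 in normal hepatocytes and 14.58, 14.84 and 14.91 in HCC. The lowest HCC array was more than 1 log2 unit above the highest normal one, and the rise was 1.63 (SE 0.18, adjusted p = 2.01e-05), with 1.71 and 1.68 for its other probes. Serpind1, heparin cofactor II, a thrombin inhibitor, stood at 11.47, 11.63 and 12.21 against 13.01, 13.35 and 13.24. It rose by 1.43 (SE 0.19, adjusted p = 7.37e-05), and its groups did not overlap.

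Plg, the precursor of plasmin, rose by 0.35 (SE 0.13, adjusted p = 0.0424), and its other probes rose by 0.66, 0.74 and 1.83. Serpinc1, antithrombin, rose by 0.42 (SE 0.15, adjusted p = 0.0344), but its second probe changed by -0.36 (adjusted p = 0.109), so the direction depends on the probe.

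Among the 6 genes of the contact system and its partners, 3 rose and 1 fell. F11, the protease that activates factor IX, had log2 levels of 10.75, 11.47 and 11.73 in normal hepatocytes and 12.39, 12.38 and 12.75 in HCC. All HCC arrays were higher, the rise was 1.19 (SE 0.22, adjusted p = 0.00087), and its other probes rose by 1.22 and 0.61. Klkb1, plasma prekallikrein, is the closest relative of F11 and its neighbour on chromosome 8. It stood at 10.82, 10.93 and 11.14 in normal hepatocytes and at 10.13, 9.65 and 10.90 in HCC, so that 1 HCC array fell among the normal ones. Its change was -0.73 (SE 0.26, adjusted p = 0.0328), which became -0.44 without HCC replicate 2 and -1.07 without HCC replicate 3. A second Klkb1 probe changed by -0.68 and was not called (adjusted p = 0.0542).

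F12, the factor that starts the contact pathway, rose by 0.82 (SE 0.17, adjusted p = 0.00181), and F5, the cofactor that speeds prothrombin activation, by 0.89 (SE 0.22, adjusted p = 0.00533). All other F12 and F5 probes rose as well, by 0.81 to 0.88. F13b, the carrier subunit of the fibrin-linking factor XIII, changed by -0.33 (SE 0.23, adjusted p = 0.259).

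Kng1, high-molecular-weight kininogen, changed by 0.17 (SE 0.14, adjusted p = 0.326) on its chosen probe, which is so bright that its signal was 75.8% to 92.6% of the highest signal on each normal or HCC array. The next Kng1 probe rose by 0.97 (SE 0.13, adjusted p = 9.26e-05) and the dimmest by 2.56 (SE 0.19, adjusted p = 1.29e-06). Kng1 has a near-identical copy, Kng2, whose own probe rose by 1.76 (SE 0.16, adjusted p = 5.58e-06), and the probes of the pair may share RNA. The rule of the highest signal thus gave the smallest change of the 3 Kng1 probes.

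**Figure D3:**
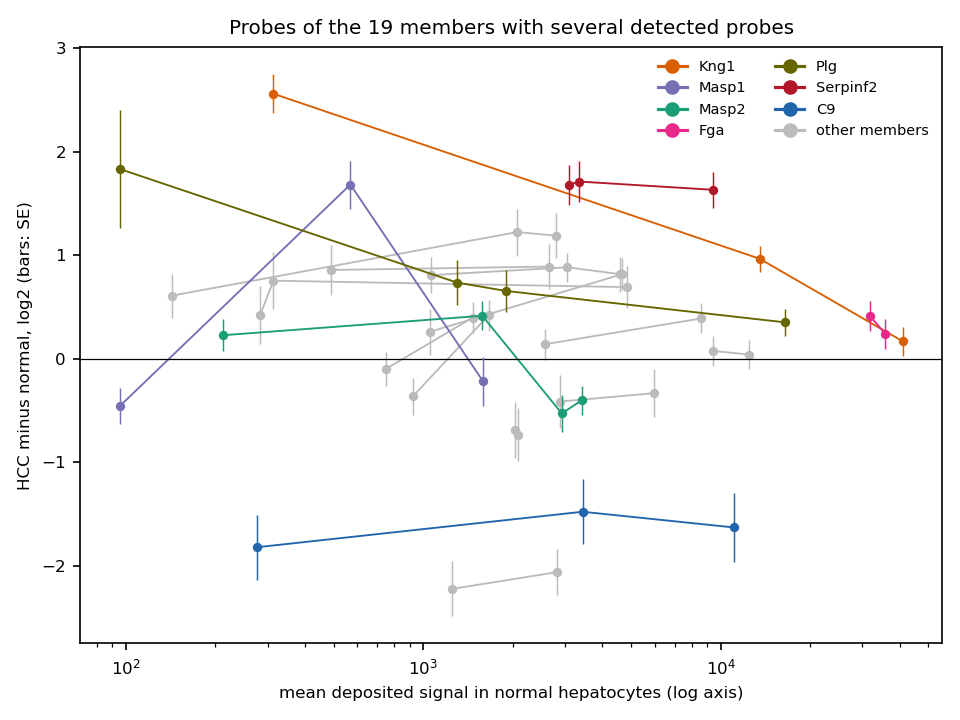
Log2 difference between HCC and normal hepatocytes (vertical axis, bars are SE) for each detected probe of the 19 members with several, against its mean deposited signal in normal hepatocytes (horizontal log axis), with lines joining probes of a gene. The Kng1 probes run from 2.56 at the dimmest to 0.17 at the brightest, the Masp1 probes lie on both sides of 0, and the probes of Serpinf2 and C9 stay together.

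The fibrinogen genes encode the chains of the clot protein and are classed among the acute phase genes of the liver. Of the 3, none was called on its chosen probe. Fga, the alpha chain, had log2 levels of 15.02, 14.86 and 15.27 in normal hepatocytes and 15.32, 15.24 and 15.31 in HCC, a change of 0.24 (SE 0.14, adjusted p = 0.179). Its probe, too, was near the top of the scale, at 58.1% to 86.5% of the highest signal on normal arrays, and a second Fga probe rose by 0.42 (adjusted p = 0.0338). Fgg, the gamma chain, changed by -0.04 (SE 0.20, adjusted p = 0.893). Fgb, the beta chain, changed by 0.07 (SE 0.23, adjusted p = 0.827) on a dim probe. Its mean deposited signal in normal hepatocytes was 95.8, against 35809 for Fga and 11230 for Fgg, so this probe may not report Fgb RNA.

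Of the 7 vitamin K-dependent factors, 2 rose, and both changes were small. Proc, the anticoagulant protease protein C, rose by 0.39 (SE 0.14, adjusted p = 0.0401), with HCC array 1 level with normal array 3 at 13.12. A second Proc probe changed by 0.14 (adjusted p = 0.468). Proz, protein Z, rose by 0.40 (SE 0.15, adjusted p = 0.0419), but its second probe changed by -0.10 (adjusted p = 0.652). Without HCC replicate 3 the Proz change was 0.25. F2, prothrombin, was higher on every HCC array than on every normal one, at 12.96 to 13.46 against 12.57 to 12.93, but its change of 0.44 (SE 0.18) had an adjusted p of 0.0554.

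F7, the factor that starts clotting with tissue factor, changed by 0.11 (SE 0.16) and F10, at which both branches of clotting meet, by -0.04 (SE 0.18). These genes lie 1498 bases apart on chromosome 8, with Proz 3907 bases beyond F10. F9, the haemophilia B factor, changed by -0.45 (SE 0.21, adjusted p = 0.0973), with HCC arrays at 11.77 to 12.79 and normal arrays at 12.69 to 12.87. Pros1, the cofactor of protein C, spread widely in HCC, at 9.93, 10.50 and 11.38 against 10.31 to 10.53 in normal hepatocytes, and changed by 0.17 (SE 0.27, adjusted p = 0.626).

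Aggregate cells were compared with non-aggregate cells to see whether these genes already differ between the premalignant groups. No member was called in limma without the replicate number as a block, where 0.724% of all genes were called higher and 0% lower. None was called with the block either, where the calls were 1.03% of all genes upward and 0% downward. At an unadjusted p below 0.05 there were 0 members without the block and 1, Serpinf2, with it. With the block in a fit of these 6 arrays alone, an alternative chosen after seeing the data, 5 members had an unadjusted p below 0.05 and 0 were called, where 4.3% of all genes were called higher and 0.423% lower. The changes ran from -0.26 for C9 to 0.34 for Serpinf2, and their 95% intervals reached from -0.98 to 0.80, so that all 36 stayed within a log2 change of 1. The median was 0.03 over the members and -0.03 over all genes. In the same comparison 4 of 13 endothelial, 2 of 9 macrophage and 3 of 11 stellate cell markers were called higher, and 0 of 8 hepatocyte markers. With the block these were 1, 3, 1 and 0.

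C6 had log2 levels of 11.57, 10.84 and 11.25 in non-aggregates and 11.49, 10.90 and 11.25 in aggregates, and the same-numbered arrays lay close together. Serpinf2 stood at 13.32, 12.88 and 13.20 in non-aggregates and at 13.68, 13.31 and 13.43 in aggregates, higher in each same-numbered pair while the groups overlapped. F11 stood at 11.31, 11.03 and 11.24 against 11.47, 11.51 and 11.51, with no overlap, and its change was 0.30 (SE 0.22, adjusted p = 0.9999). Arrays of the groups did not overlap in 4 members, each higher in aggregates (Cfi, Serpind1, F11 and Pros1), which is 11.1% of the members against 9.48% of all genes, and in 0 lower ones against 8.14%. All 3 same-numbered differences were above 0 in 11 members, 30.6% against 19.6% of all genes, and below 0 in 7 members, 19.4% against 26.5%. The second Masp1 probe was the exception among the probes, with a rise of 1.22 (SE 0.23, adjusted p = 0.048) in aggregates. With the block its adjusted p was 0.0751, so that it was not called.

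**Figure D4:**
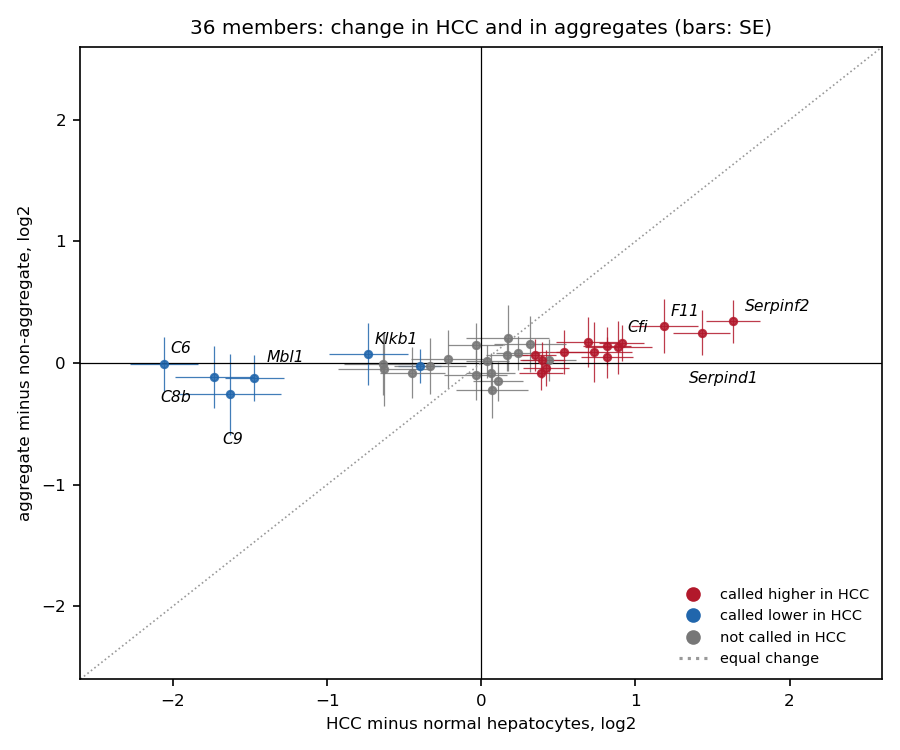
Log2 change in HCC against normal hepatocytes (horizontal axis) and in aggregate against non-aggregate cells (vertical axis, same scale) for the 36 members, with SE as bars, the HCC call as colour and a dotted line of equal change. The members spread from -2.06 to 1.63 along the HCC axis and only from -0.26 to 0.34 along the aggregate axis.

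Whether a member changed differently in HCC and in aggregates was tested as the difference of both changes. This difference was above 0 and called in 5 members and below 0 and called in 3, where 10.8% and 10% of all genes were called. C6 fell by 2.05 more in HCC (SE 0.32, adjusted p = 0.00121), C8b by 1.62 more (SE 0.36, adjusted p = 0.00873) and Mbl1 by 1.35 more (SE 0.27, adjusted p = 0.00495). Serpinf2 rose by 1.29 more in HCC (SE 0.25, adjusted p = 0.00421) and Serpind1 by 1.18 more (SE 0.26, adjusted p = 0.00824). F12, Cfi and C4bp rose by 0.77, 0.74 and 0.68 more. For C9 the difference was -1.37 (adjusted p = 0.0565) and for F11 0.88 (adjusted p = 0.0622), and neither was called. With the replicate block 8 members were called above 0 and 4 below, where 13.3% and 12.9% of all genes were, and the adjusted p of C9 and F11 became 0.00396 and 0.0308. Whether the replicate numbers pair normal and HCC arrays is not settled, and the blocked values carry that limit. By median scaling 3 members were called above 0 and 3 below, where 1862 and 432 of all 10641 genes were. With that scaling 81.2% of all calls were upward in place of 51.9%. HCC and aggregate cells lie on different chips, but each change was taken within its chip.

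Both premalignant groups were also set against normal hepatocytes, which lie on the other chip, so group and chip cannot be told apart. No member was called in either comparison, where aggregates had 3.2% of all genes higher and 1.67% lower, and non-aggregates 0.836% higher and 0.724% lower. Of all calls 65.7% were upward in aggregates and 53.6% in non-aggregates, which became 81.4% and 69.9% by median scaling and 51.7% and 38.2% with each chip normalised by itself. In limma at an unadjusted p below 0.05 there were 2 members for aggregates and 0 for non-aggregates. The values ran from -0.62 for Fgb to 0.50 for Masp1 in aggregates, and from -0.40 for Fgb to 0.47 for Masp1 in non-aggregates. Both Fgb values rest on the dim probe described above. C6 changed by -0.20 and -0.19 in aggregates and non-aggregates, C8b by -0.06 and 0.06, and Serpinf2 by 0.33 and -0.01.

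Of 52 further genes of complement, coagulation and fibrinolysis, 36 were measured, and these included genes made mainly by other cells. In HCC 20 rose and 2 fell, where 23.2% of all genes were called higher and 25.9% lower. The median log2 change was 0.65 over the 36 genes and -0.08 over all genes. By median scaling 22 rose and 1 fell, where 3320 and 1370 of all 10641 genes did, and the medians were 0.83 and 0.18. C1qb, C1qc and C1qa encode the chains of C1q, the antibody-binding starter of complement that macrophages make, and rose by 2.65 (SE 0.47), 2.59 (SE 0.50) and 1.66 (SE 0.43). Cfp, properdin, which stabilises the alternative convertase, rose by 1.74 (SE 0.47), and Colec11, a collectin of the lectin pathway, by 1.90 (SE 0.42). The macrophage markers rose with them, as given above, and their part was not tested.

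Hgfac, a liver-made protease that activates hepatocyte growth factor, rose by 1.70 (SE 0.14, adjusted p = 2.71e-06). Plat, tissue plasminogen activator, was not well above background on any normal array and was at least 2.35-fold higher in HCC (adjusted p = 0.000914), a bound set by the lowest level of a detected probe. Serpina5, an inhibitor of activated protein C, was not detected on any HCC array and was at least 3.24-fold higher in normal hepatocytes (adjusted p = 0.006). Tfpi, the inhibitor of tissue factor, fell by 1.10 (SE 0.22, adjusted p = 0.00152).

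In aggregates none of the 36 was called without the block, and 6 rose with the replicate number as a block: C1qb, C1qc, Cfp, Fcna, Vsig4 and Cd55. With the block 110 of all 10641 genes were called higher. Without it the count of the 36 called higher was 8 by median scaling, 4 by cyclic loess and 9 with array weights. It was also 9 with the block and only the groups compared. Of all 10641 genes, 215, 147, 347 and 458 were called higher in these fits, in that order, against 77 in the main fit. C1qc was higher by 2.38 (SE 0.50) and Vsig4, a complement receptor of Kupffer cells, by 2.27 (SE 0.53), with adjusted p of 0.0541 and 0.0716 that became 0.0208 and 0.0102 with the block. Fcna, a ficolin of the lectin pathway, was 2.09 higher in aggregates (SE 0.46, adjusted p = 0.0615, and 0.0208 with the block) and changed by 0.02 (SE 0.46) in HCC. Of the 9 macrophage markers 2 rose in aggregates without the block and 3 with it.

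**Figure D5:**
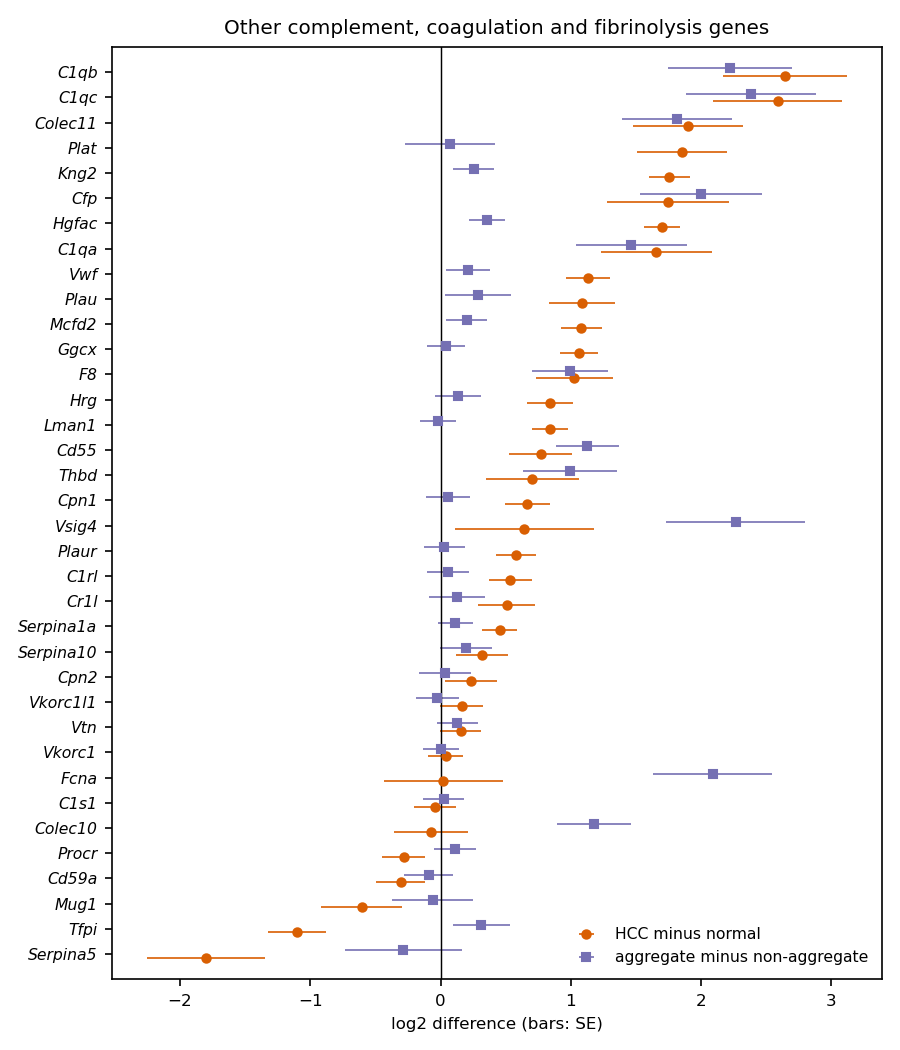
Log2 difference (horizontal axis, bars are SE) of the 36 further pathway genes in HCC against normal hepatocytes (circles) and in aggregate against non-aggregate cells (squares), ordered by the HCC value. C1qb, C1qc, Cfp and Colec11 have high values in both comparisons, and Kng2 and Hgfac in HCC. Fcna and Vsig4 reach 2.09 and 2.27 in aggregates against 0.02 and 0.64 in HCC. None of the 36 was called in aggregates without the replicate block, and Colec11 was not called with it either.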

How the data were processed

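The deposited table gives, per the file headers, an average bead signal intensity and a detection p-value for each of 45281 probes on 12 Illumina arrays, biotin-labelled total RNA per the labels' protocols. A second deposited table of normalised intensity, of unstated method (column medians 48.2 to 49.1), served as an alternative; its columns followed their arrays with a Spearman rho of at least 0.985. All columns were mapped.

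The signal was background corrected by normexp from the detection p-values (offset 16), quantile normalised and taken to log2. Probes with detection p below 0.05 on at least 3 arrays were kept (19670). Gene names came from the platform annotation, updated through RefSeq (GRCm38.p6): 34885 probes had 1 gene, 18 several, and 10378 none listed. Genes were fitted with limma 3.58.1 (R 4.3.3), a mean per group over 12 arrays, 2-sided, with Benjamini-Hochberg adjustment over 10641 genes and a call below 0.05, and the procedure was tested on simulated data. Figures used Python 3.11.15 and matplotlib 3.10.9.

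The members, role lists, marker lists and further pathway genes were chosen with earlier results of these data known. All members are named; of the further genes, those called within a chip, up to 8 per direction, and, chosen after their values were seen, those called with the block in aggregates.

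Replicate numbers are shared in the labels. In the premalignant groups, deviations from the group mean of arrays with equal numbers had correlations of 0.71, 0.55 and 0.64, so these numbers were taken to pair samples, though such arrays are also adjacent on their chip. For normal and HCC arrays the values were -0.01, 0.13 and 0.11 over all genes, and 0.28, 0.18 and 0.33 over the members. Whether the numbers pair these arrays is therefore not settled. Where a group had no detected array, the fold is a lower limit, computed against the lowest level of any detected probe on each such array, or against the probe's own level where that was higher.

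Alternatives were other background, scaling and detection choices, other probe rules, array weights, the replicate block, separate chips, fits restricted to the groups compared, a minimum log2 change of 1 and leaving out each array.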

Additional observations from a re-analysis of the deposited data

Results flagged for a closer look

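For 8 members the change in HCC and the change in aggregates differed by the test of that difference in limma. They were 13.9% of the members above 0 and 8.33% below, near the 10.8% and 10% of all genes called. The log2 difference, HCC change minus aggregate change, was -2.05 for C6, -1.62 for C8b and -1.35 for Mbl1. It was 1.29 for Serpinf2, 1.18 for Serpind1, 0.77 for F12, 0.74 for Cfi and 0.68 for C4bp. The adjusted p ran from 0.00121 for C6 to 0.0488 for C4bp, so C4bp lies close to the threshold.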

How the results depend on the processing

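The counts of members rest partly on changes near the threshold. The 14 higher in HCC became 9 by median scaling and 8 with array weights. They were 8 with only the groups compared and 3 at a log2 change of at least 1. Leaving out 1 array they ran from 7 to 15, with 7 without normal replicate 1 or HCC replicate 3. Of all 10641 genes, 2469 were higher in the main fit, 3320 by median scaling, 2078 with array weights and 1936 with only the groups compared. The count was 1419 at that log2 change, 2129 without normal replicate 1 and 2276 without HCC replicate 3. The share of members was below that of all genes by median scaling, at that log2 change and without either of these arrays. It was above with array weights and with only the groups compared. The 6 lower ran from 4 to 8 (4 without normal replicate 2 or HCC replicate 1, 8 without HCC replicate 3). Of all genes, 2392, 2725 and 2448 were lower in these fits, in that order. With the replicate block 14 members were higher and 8 lower, adding Mbl2 and C8a, where 2633 and 2965 of all genes were. A pairing of normal and HCC arrays by these numbers is not settled. The 5 members with a difference above 0 became 3 by median scaling and 8 with the replicate block (adding C2, F5 and F11). They were 2 at a log2 change of at least 1 and ran from 2 to 5 leaving out 1 array. Of all genes, 1154 were above 0 in the main fit, 1862 by median scaling, 1416 with the block and 856 at that log2 change. The 3 members below 0 ran from 3 to 5, with 5 without HCC replicate 3, and were 4 with the block, adding C9. Of all genes, 1068 were below 0 in the main fit, 1005 without HCC replicate 3 and 1375 with the block. For aggregates against normal hepatocytes 1 member was called higher with array weights, and 0 to 1 leaving out 1 array, with 1 without normal replicate 3. Of all genes, 580 were called higher with array weights and 338 without normal replicate 3. With the second brightest probe Masp1 was 1.68, Proz -0.10 and Serpinc1 -0.36, so these turned. The aggregate comparison gave 0 members under every alternative run, the replicate block included, except that Masp1 was called with its second brightest probe (1.22), though not with the replicate block (adjusted p = 0.0751). Serpinf2, Serpind1, Cfi, F11, F12, F5, C6, C8b, C9 and Mbl1 were called in HCC under every alternative run except, for Cfi, F12 and F5, the log2 change of at least 1. Over all genes, 2759 lower calls in HCC became 1370 by median scaling. The causes were not tested.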
